A study of Mus musculus with 12 samples.

Results

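The muscle miRNAs miR-1a, miR-133a, miR-133b and miR-206 come from 6 precursors, mmu-mir-1a-1, mmu-mir-1a-2, mmu-mir-133a-1, mmu-mir-133a-2, mmu-mir-133b and mmu-mir-206. They were taken by name, and all 6 were found among the 1532 precursors with reads, 997 of which are annotated. The samples are small RNA libraries of retina from db/db mice, labelled BL/KsJ-db/db with a leading number that rises by 1 from sample to sample. Mutation of the leptin receptor makes such mice obese and diabetic. The 6 Keluoxin libraries are from mice given Keluoxin, a Chinese herbal capsule, and the 6 model libraries are from db/db mice for which the labels name no agent. Dose, time and age are not given in the labels, and no library here is from a mouse without the db/db genotype, which both groups carry. Retina is given as the source, but the protocol describes RNA from an exosome pellet. No label states that the libraries of a group are from different animals. The p-values therefore speak only of the spread among these libraries, which may be technical.

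These miRNAs are the classic markers of striated muscle. In the mouse, miR-1 and miR-133a are transcribed together in heart and skeletal muscle, whereas miR-206 and miR-133b are transcribed together in skeletal muscle and not in heart. miR-1 and miR-206 promote the differentiation of myoblasts, and miR-133 acts on their proliferation and on actin and calcium handling genes. The retina itself holds no striated muscle, but the eye is moved by extraocular muscles that lie against the globe.

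Paralogs share so much sequence that many reads fit several of them. RefSeq entries for the GRCm38.p6 build gave 5 mature sequences of the members, shown here 5′ to 3′ with the seed (bases 2 to 8, which pair with targets) in capitals, because they show which arms can be told apart.
miR-206-3p: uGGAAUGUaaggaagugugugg
miR-133b-3p: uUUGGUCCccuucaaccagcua
miR-1a-1-5p: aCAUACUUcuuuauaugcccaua
miR-206-5p: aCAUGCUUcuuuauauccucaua
miR-133b-5p: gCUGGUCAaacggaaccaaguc
The most frequent miR-1a-3p read has the same seed as miR-206-3p and differs from it at 4 bases. The 5p arms miR-1a-1-5p and miR-206-5p differ at 3 bases. The hairpins of the pair on chromosome 1 are shown with both mature arms in capitals, because in both it is the 3p arm that carried the reads.
mir-206: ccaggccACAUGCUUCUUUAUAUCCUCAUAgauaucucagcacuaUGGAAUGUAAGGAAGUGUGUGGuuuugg
mir-133b: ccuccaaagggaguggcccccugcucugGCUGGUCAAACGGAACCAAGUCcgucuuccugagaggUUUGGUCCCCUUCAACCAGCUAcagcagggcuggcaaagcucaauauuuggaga

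In the GENCODE M21 annotation of GRCm38, mir-206 (chr1:20679010-20679082, plus strand) and mir-133b (chr1:20682769-20682887, plus strand) both overlap exons of the long noncoding RNA gene Gm28653 and lie 3686 bases apart. mir-1a-1 (chr2:180389048-180389124, plus strand) and mir-133a-2 (chr2:180398379-180398482, plus strand) lie 9254 bases apart and overlap no other annotated gene. mir-1a-2 (chr18:10785481-10785552, minus strand) and mir-133a-1 (chr18:10782909-10782976, minus strand) lie 2504 bases apart, in introns of Mir133a-1hg and, on the opposite strand, of Mib1, and mir-1a-2 overlaps mir-1b on the other strand. The copies mir-1a-1 and mir-1a-2 give the same miR-1a-3p, as do both mir-133a copies with miR-133a-3p, so each copy's own output could not be measured.

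Together the members took 34527 of 62878432 counted reads, as 321 distinct sequences. Library depth ran from 1933375 reads (Keluoxin replicate 5) to 7892147 reads (model replicate 3). Keluoxin replicate 4 stood apart from the other 11 libraries. There the members took 0.249% of the counted reads, against 0.0323% to 0.0402% in the other 5 Keluoxin libraries and 0.0305% to 0.0405% in the model libraries. The libraries were retinal in make-up: the summed level of the 10 arms of miR-182, miR-183, miR-96, miR-124 and miR-9, which mark photoreceptors and neurons, was 265070 CPM (reads per 1000000 after TMM scaling of the library totals) in Keluoxin replicate 4, 363290 to 483794 CPM in the other Keluoxin libraries and 461485 to 544703 CPM in the model libraries. Of the 10 arms 3 passed the edgeR test described below as lower in Keluoxin and 0 as higher (median log2 fold change −0.35). Only miR-96-5p had a positive log2 fold change, 0.26, which did not pass (edgeR adjusted p = 0.0744). It stood at 38930 CPM in Keluoxin replicate 4, 53157 to 55180 CPM in the other Keluoxin libraries and 37577 to 47107 CPM in model. The summed level was lower in Keluoxin replicate 4 than in any other library, but not all of its arms were. miR-182-5p, miR-183-5p and miR-9-5p were each lowest there. miR-124-3p was at 46350 CPM there, against 28019 to 42715 CPM in the other Keluoxin libraries and 36002 to 56599 CPM in model. miR-9-3p and miR-183-3p were also higher there than in the other Keluoxin libraries. In bulk RNA, a change in the number of cells of a type and one in the RNA per cell cannot be told apart.

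Each read was counted once. Reads that fit only copies of 1 miRNA stood under its name, and reads that fit several miRNAs stood under a joint name. Of the 9 arm names that the members gave, 4 passed the filter on low counts and were tested: miR-1a-3p, miR-206-3p, miR-133a-3p and the joint name miR-133a/b-3p. The others, miR-133b-3p, miR-133a-5p, miR-1a-5p, miR-206-5p and a joint name of miR-1a-3p and miR-206-3p, held 29, 57, 2, 2 and 129 reads over all 12 libraries. Of the 4 tested, only the joint name miR-133a/b-3p passed the test (edgeR, quasi-likelihood, with a Benjamini-Hochberg threshold of 0.05), at a higher level in Keluoxin. Over all 1006 arm names tested, 20.3% passed (11.4% higher, 8.85% lower), so 1 of 4 is near the background. Without Keluoxin replicate 4, 0 of the 4 passed, against 18.7% of 1001 arm names.

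miR-1a-3p, the main striated muscle miRNA, was the most abundant member, with 31037 reads. In the Keluoxin libraries its level had a lowest value of 249, a median of 329.5 and a highest value of 1629.8 CPM. In the model libraries the lowest value was 268, the median 336 and the highest 409.9 CPM. All libraries but Keluoxin replicate 4 lay between 249 and 409.9 CPM, and the groups overlapped. By replicate, 1 to 6, the levels were 298, 293, 387, 1629.8, 362 and 249 CPM in Keluoxin and 268, 353, 409.9, 334, 338 and 314 CPM in model. The log2 fold change was 0.67 (SE 0.44, edgeR adjusted p = 0.265). Without Keluoxin replicate 4 the level was 318 ± 56.1 CPM in Keluoxin (SD, n = 5) and 336 ± 46.5 CPM in model (SD, n = 6), and the log2 fold change turned to −0.11 (SE 0.14, edgeR adjusted p = 0.596). By mean level miR-1a-3p ranked 108th of 1609 annotated arm names in the model libraries, and by its level in Keluoxin replicate 4 it ranked 46th. Over the 11 libraries without Keluoxin replicate 4 its coefficient of variation was 15.1%. For the 88 annotated arms with a mean level within 2-fold of it, the median was 19.1%, and 28 of them varied less.

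**Figure D1:**
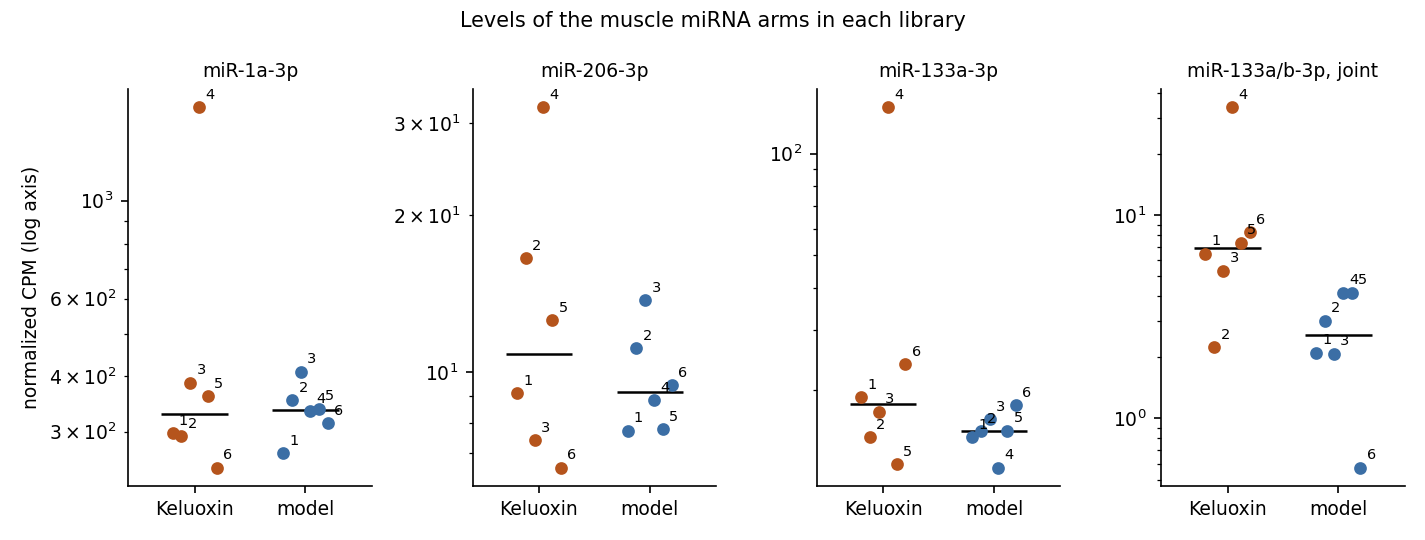
Normalized CPM (log axis) of the 4 tested arms in each Keluoxin and model library, with replicate numbers beside the points and the group median as a bar. Keluoxin replicate 4 is the highest point in each panel, and for miR-1a-3p the other 11 libraries lie between 249 and 409.9 CPM.

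miR-206-3p, the miRNA of skeletal muscle, was rarer, with 805 reads. Its level in Keluoxin had a lowest value of 6.56, a median of 10.8 and a highest value of 32.2 CPM. In model these values were 7.72, 9.14 and 13.7 CPM. By replicate, 1 to 6, it stood at 9.10, 16.5, 7.41, 32.2, 12.6 and 6.56 CPM in Keluoxin and at 7.72, 11.1, 13.7, 8.84, 7.76 and 9.45 CPM in model. The highest Keluoxin values were those of replicate 4 and of replicate 2 (16.5 CPM), which lay above all model libraries, while replicates 3 and 6 lay below all of them. The log2 fold change of 0.53 (SE 0.38) did not pass (edgeR adjusted p = 0.311), and it was 0.06 (SE 0.28, edgeR adjusted p = 0.880) without Keluoxin replicate 4.

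miR-133a-3p, which in muscle comes from the same transcripts as miR-1a, held 1976 reads of its own. Its level in Keluoxin had a lowest value of 12.1, a median of 18.1 and a highest value of 137 CPM. In model these values were 11.8, 15.2 and 18.04 CPM. By replicate, 1 to 6, it stood at 19.0, 14.5, 17.2, 137, 12.1 and 23.8 CPM in Keluoxin and at 14.5, 15.1, 16.4, 11.8, 15.2 and 18.04 CPM in model. Replicates 1, 4 and 6 of Keluoxin lay above all model libraries, and only replicate 4 lay far above them. The log2 fold change of 1.31 (SE 0.57) did not pass (edgeR adjusted p = 0.123), and it was 0.18 (SE 0.20, edgeR adjusted p = 0.533) without Keluoxin replicate 4. Then the level was 17.3 ± 4.49 CPM in Keluoxin (SD, n = 5), against 15.2 ± 2.08 CPM in model (SD, n = 6).

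The joint name miR-133a/b-3p held 490 reads. Its level in Keluoxin had a lowest value of 2.25, a median of 6.90 and a highest value of 34.1 CPM, against a lowest value of 0.573, a median of 2.57 and a highest value of 4.16 CPM in model. By replicate, 1 to 6, it stood at 6.47, 2.25, 5.34, 34.1, 7.34 and 8.24 CPM in Keluoxin and at 2.10, 3.03, 2.08, 4.16, 4.15 and 0.573 CPM in model. Of the 6 Keluoxin libraries, 5 lay above all model libraries, and replicate 2 lay within their range. The log2 fold change was 1.97 (SE 0.63, edgeR adjusted p = 0.0465). Without Keluoxin replicate 4 it was 1.09 (SE 0.45) and the call was lost (edgeR adjusted p = 0.115), with 5.93 ± 2.32 CPM in Keluoxin (SD, n = 5), against 2.68 ± 1.39 CPM in model (SD, n = 6). Of the 12 fits that each left out 1 library, only the one without Keluoxin replicate 2 kept the call (edgeR adjusted p = 0.0316, and 0.0508 to 0.115 in the other 11).

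**Figure D2:**
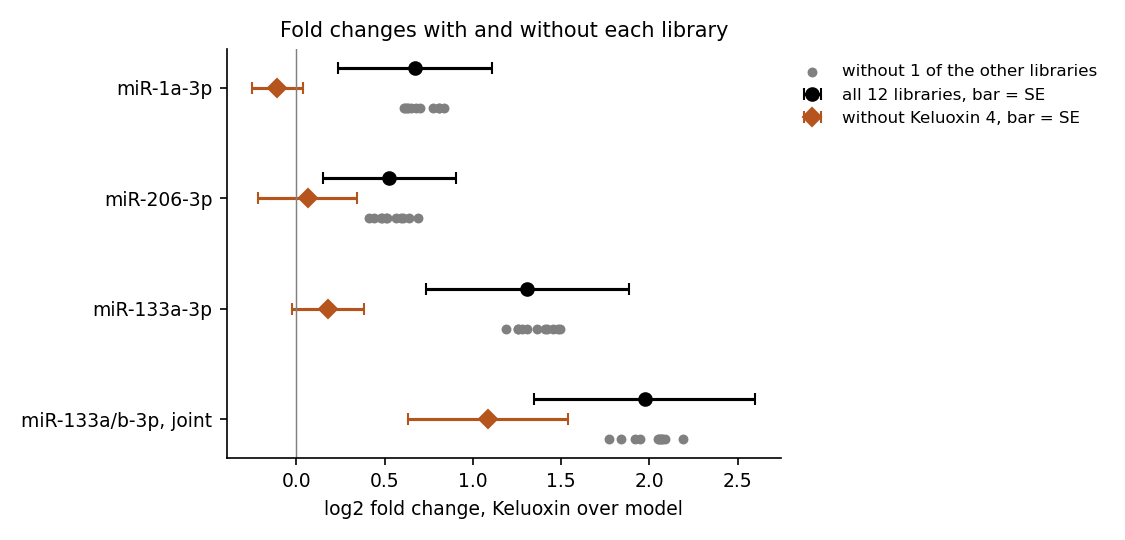
Log2 fold change of Keluoxin over model for the 4 tested arms, from all 12 libraries (black), without Keluoxin replicate 4 (orange) and without each other library (grey), with SE bars on the first and second. The values without Keluoxin replicate 4 are 1.09 for the joint miR-133a/b-3p and between −0.11 and 0.18 for the others.

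The joint reads decide what can be said of miR-133b. miR-133b-3p differs from miR-133a-3p in its last base, so a read must reach that base to be assigned, and a change close to it can leave a read equally far from both. Of the reads on the 3p arm, 1976 fit only miR-133a and 25 fit only the mature arm of miR-133b, so miR-133b took 1.25% of the assigned reads (95% Clopper-Pearson interval 0.810% to 1.84%, which covers counting error only). Joint reads that carry the deciding base of either miRNA are left out, such as 152 with that of miR-133a and 13 with that of miR-133b. The value is therefore not the share of miR-133b among all miR-133-3p reads. The most frequent reads of miR-133b alone are shown with the deciding base in capitals, as read in DNA letters.
Read of miR-133b with 11 counts: ttggtccccttcaaccagctA
Read of miR-133b with 10 counts: tttggtccccttcaaccagctA
Another 4 reads under the name miR-133b-3p lie at the 3′ end of the hairpin, beyond the mature arm. By replicate, 1 to 6, the mature reads of miR-133b alone numbered 0, 2, 4, 9, 2 and 0 in Keluoxin and 2, 0, 4, 0, 2 and 0 in model. No library but Keluoxin replicate 4 held more than 4, and miR-133b alone was too rare to be tested.

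The joint reads were of 2 kinds. Of the 490, 127 fit both precursors without mismatch because they end before the deciding base, and 363 carry a change. In most of the 363 the change leaves the read equally far from both. Others, such as 14 reads with T21C against both, also end before the deciding base. The most frequent changed reads were of 22 and 23 nt. With positions counted from the first base of the read and the precursor's base first, 152 reads were T22C against mir-133a-2 and A21G against mir-133b, and 121 were T23C and A22G. In Keluoxin 13.1% to 35.9% of all miR-133-3p reads stood under the joint name, with 19.7% in replicate 4, against 3.08% to 26.1% in model.

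In a count chosen after seeing the data, the joint reads were divided equally between both miRNAs, and miR-133b-3p then passed the filter. It stood at 6.04 ± 6.29 CPM in Keluoxin and 1.65 ± 0.761 CPM in model (SD, n = 6 each; log2 fold change 1.86, SE 0.59, edgeR adjusted p = 0.0474, where 17% of all arms passed). That level was 18.7 CPM in Keluoxin replicate 4, and without this library the log2 fold change was 1.04 (SE 0.40) and did not pass (edgeR adjusted p = 0.103). Since the reads assigned to miR-133b alone are few in each library, this value is one of the shared reads. The most frequent of these, 152 of 22 nt and 121 of 23 nt, carry the deciding base of miR-133a with the base after it changed to C. Which miRNA they came from was not tested.

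**Figure D3:**
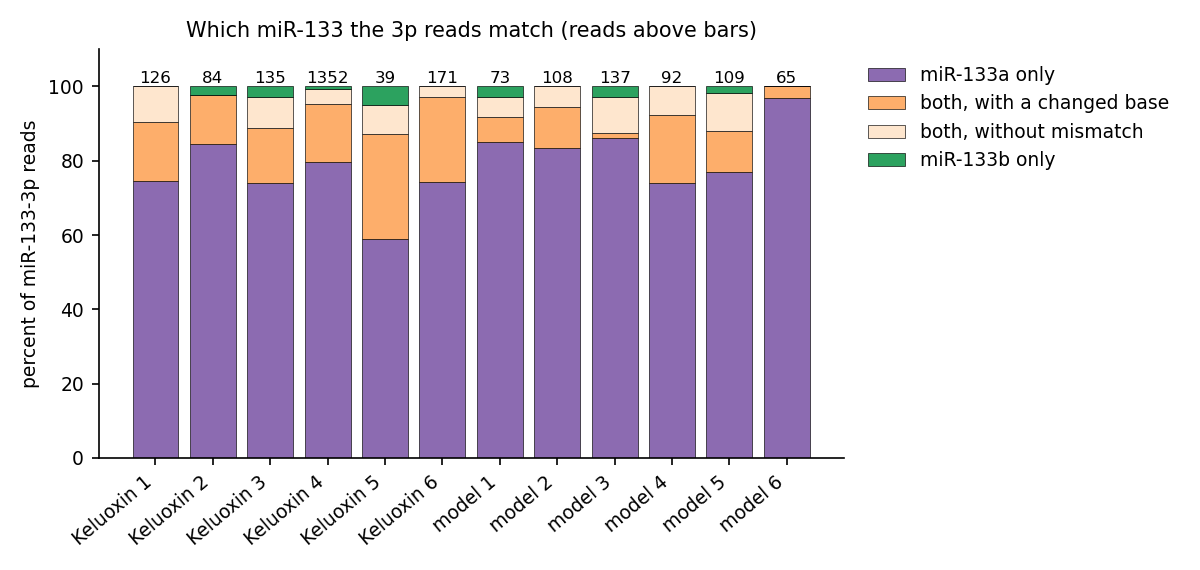
Share of miR-133-3p reads in each Keluoxin and model library that fit only miR-133a, both miRNAs with a changed base, both without mismatch, or only miR-133b, with the number of reads above each bar. Reads of miR-133b alone number at most 9 in a library, and the joint share runs from 3.08% to 35.9%.

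The excess in Keluoxin replicate 4 was unequal among the members. Against the median of the other 11 libraries, the level there was 9.05 times as high for miR-133a-3p, 8.21 times for the joint miR-133a/b-3p, 4.88 times for miR-1a-3p and 3.53 times for miR-206-3p. Of 388 annotated arms with a mean level of at least 10 CPM, miR-133a-3p, miR-1a-3p and miR-206-3p ranked 5th, 6th and 7th by this ratio, whose median over these arms was 0.871. In that library 9.45 miR-1a-3p reads were counted for each miR-133-3p read, against 7.76 to 17.7 in the other Keluoxin libraries and 15.7 to 21.6 in the model libraries. The lowest ratio, 7.76, was that of Keluoxin replicate 6, which had the lowest miR-1a-3p level and, after replicate 4, the highest miR-133a-3p level. For each miR-206-3p read there were 50.7 miR-1a-3p reads in Keluoxin replicate 4, 17.7 to 52.3 in the other Keluoxin libraries and 29.8 to 43.6 in the model libraries.

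Of the markers of other tissues, miR-184-3p and the smooth muscle and pericyte arms were also highest in that library. The lens, cornea and epithelium list (8 miRNAs, 14 arms seen) summed to 9807.7 CPM in Keluoxin replicate 4, 196 to 308 CPM in the other Keluoxin libraries and 304 to 709.7 CPM in the model libraries. Only 3 of its 14 arms were highest there, and nearly all of the sum was miR-184-3p, a miRNA abundant in cornea and lens. It stood at 9636 CPM in Keluoxin replicate 4, against 67.8 to 178 CPM in the other Keluoxin libraries and 64.5 to 381 CPM in model. miR-205-5p, which marks surface epithelium, was at 20.9 CPM there, within the model range of 0.416 to 39.8 CPM. Of these 14 arms 6 were tested, with 0 called higher and 1 called lower in Keluoxin and a median log2 fold change of −0.84. Among the 6, only miR-184-3p (3.37, edgeR adjusted p = 0.0839) and miR-200a-3p (0.12, edgeR adjusted p = 0.875) had positive log2 fold changes. All 4 arms of the smooth muscle and pericyte miRNAs miR-143 and miR-145a were highest in that library, with a sum of 6620.1 CPM, against 3209 to 4992 CPM in the other Keluoxin libraries and 2516 to 4095 CPM in model; 0 of the 4 were called, with a median of 0.34. Across all tested arms, 13.5% were highest in that library. What part these tissues have in the muscle miRNA levels was not tested.

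Heart and other muscle miRNAs were not highest in Keluoxin replicate 4, but only 3 of their arms passed the filter on low counts. Of the other muscle list, 9 arms were seen, from miR-208a, miR-208b, miR-499, miR-486a, miR-486b and miR-1b. In that library 0 of the 9 were highest, against 13.5% of all tested arms. No read of miR-133c was listed. miR-499-5p, made from an intron of a myosin gene, stood at 211 CPM in Keluoxin replicate 4, 204 to 268 CPM in the other Keluoxin libraries and 161 to 289 CPM in model (log2 fold change 0.09, SE 0.15, edgeR adjusted p = 0.678). The heart marker miR-208a-3p was at 0 in Keluoxin replicate 4 and in all model libraries, with 7.35 CPM as its highest value, in Keluoxin replicate 2. Of the 3 tested arms, miR-486b-5p, which is also erythroid, was higher in Keluoxin (edgeR adjusted p = 0.0416), at 6.02 ± 2.63 CPM, against 2.55 ± 0.777 CPM in model (SD, n = 6 each). The median log2 fold change of these 3 arms was 1.13, against 0.06 over all tested arms. Reads that fit both miR-486a and miR-486b stood under a joint name and are not in these values. The pigment epithelium arms of miR-204 and miR-211 summed to 9835.7 CPM in Keluoxin replicate 4, below the 10713 to 11534 CPM of the other Keluoxin libraries and within the model range of 9135 to 12210 CPM. Of these 4 arms, 1 was highest in Keluoxin replicate 4 and 0 were called. Markers of blood and liver differed between the groups. miR-451a-5p, a red cell miRNA, was at 346 CPM in Keluoxin replicate 4, 24.7 to 642 CPM in the other Keluoxin libraries and 21.6 to 43.5 CPM in model, and it was higher in Keluoxin (log2 fold change 3.02, SE 0.69, edgeR adjusted p = 0.0139). The liver miRNA miR-122-5p was at 2.30 CPM in Keluoxin replicate 4, 7.12 to 40.9 CPM in the other Keluoxin libraries and 1.17 to 4.71 CPM in model, and it was also higher in Keluoxin (log2 fold change 2.55, SE 0.64, edgeR adjusted p = 0.0197). Their part in the levels of the muscle miRNAs was not tested.

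**Figure D4:**
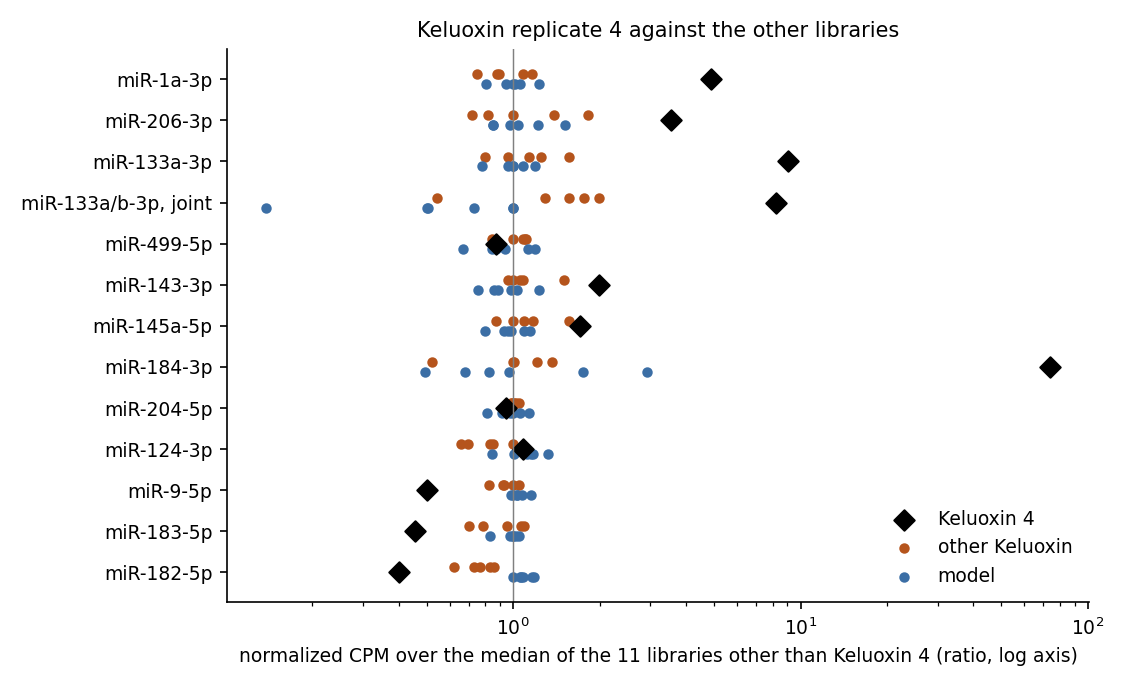
Level of member and marker arms in Keluoxin replicate 4 (black), the other Keluoxin libraries (orange) and the model libraries (blue), as a ratio to the median of the 11 libraries other than Keluoxin replicate 4 (log axis). The members lie at 3.53 to 9.05 and miR-184-3p at 73.9, while miR-499-5p lies at 0.870 and miR-182-5p at 0.401.

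The arms whose pattern was most like that of the members followed the same library. Of 385 annotated arms outside the members with a mean level of at least 10 CPM, those with the highest Pearson correlation of log2 CPM with miR-1a-3p over the 12 libraries were miR-31-5p (r = 0.948), miR-204-3p (0.886), miR-145a-3p (0.870), miR-184-3p (0.850) and miR-500-3p (0.776). With miR-133a-3p they were miR-31-5p (0.915), miR-184-3p (0.914), miR-500-3p (0.901), miR-204-3p (0.843) and miR-106b-5p (0.745). miR-31-5p, a miRNA found in keratinocytes, was at 523 CPM in Keluoxin replicate 4, against 12.7 to 28.8 CPM in the other Keluoxin libraries and 16.4 to 41.5 CPM in model. Over the other 11 libraries the correlation with miR-1a-3p stayed at 0.758 for miR-145a-3p and was 0.469 for miR-31-5p, 0.431 for miR-204-3p, −0.334 for miR-184-3p and −0.544 for miR-500-3p. Over the same 11 libraries the 5 arms named for miR-133a-3p correlated with it at 0.0995 (miR-31-5p) to 0.464 (miR-106b-5p). Between the members, miR-1a-3p and miR-133a-3p correlated at 0.881 over 12 libraries and at −0.402 over 11. For miR-1a-3p and miR-206-3p these values were 0.822 and 0.358, and for miR-133a-3p and miR-206-3p they were 0.685 and −0.432. These values share the library scaling and are descriptions.

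The 5p arms were nearly absent. miR-133a gave 57 reads on its 5p side, in 6 libraries, of which 51 start at 1 position, and 42 of the 57 were from Keluoxin replicate 4. With all joint miR-133a/b-3p reads counted among those of miR-133a, its 5p share was 2.26% (95% Clopper-Pearson interval 1.72% to 2.92%). Counted in the same way, it was 42 of 1385 reads in Keluoxin replicate 4 and 15 of 1138 in the other 11 libraries together. This difference was not tested. PCR reads are not independent molecules, so these intervals cover counting error only. For miR-1a it was 2 reads of 31039 (0.00644%, interval 0.000780% to 0.0233%), both in model replicate 1 and equal to the miR-1a-1-5p sequence shown above, so only this copy left a 5p trace. For miR-206 the 2 reads on the 5p side were in Keluoxin replicate 4 and begin upstream of the hairpin. Sequences with fewer than 2 reads are not listed in the tables, so a 0 does not exclude single reads.

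The reads of the members had sharp ends on the 5′ side for miR-1a and miR-206 but not for miR-133a. miR-1a-3p began at 1 position in 99.994% of reads and miR-206-3p in 99.5%. miR-133a-3p began in 38.5% of reads at the base where RefSeq places the start of miR-133b-3p and in 61.4% at the base after it. The later start moves the seed by 1 base. A read of 21 nt reaches the deciding base only with the later start, so the counting rule bears on these shares. The share of the later start was 48% to 65.2% in the Keluoxin libraries, against 48.4% to 66.1% in the model libraries (difference 3.48 percentage points, exact two-sided permutation test, p = 0.383, adjusted over 12 tests 0.575). Both starts were thus found in every library, at overlapping shares. Of the miR-133b reads printed above, one has the earlier and one the later start.

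On the 3′ side the reads varied more. miR-1a-3p reads were 22 nt long in 71.7% of cases and 20 nt in 19.6%. miR-206-3p reads were 22 nt in 66.5% and 20 nt in 13.7%. The reads assigned to miR-133a-3p were 22 nt in 56.4% and 23 nt in 37.9%. Those that end before the deciding base stand under the joint name, among them 77 of 21 nt and 40 of 20 nt without mismatch. The lengths of miR-133a-3p therefore cannot be set beside those of the other arms. A base that differs from the precursor was most often the last base of the read. For miR-1a-3p the most frequent change was T22C, in 12.8% of its reads and in all 12 libraries, followed by T22A (4.95%) and T22G (3.47%). miR-206-3p was most often changed to A, as its most frequent reads show with the changed base in capitals.
Read of miR-206-3p with 349 counts: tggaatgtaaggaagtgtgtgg
Read of miR-206-3p with 108 counts: tggaatgtaaggaagtgtgtgA
Read of miR-206-3p with 87 counts: tggaatgtaaggaagtgtgt
Read of miR-206-3p with 35 counts: tggaatgtaaggaagtgtgtgT
The read with the change G22A was seen in all 12 libraries and took 13.4% of the arm. miR-133a-3p reads with the change to C are among the joint reads above, and its own most frequent changes were T22A (5.06%) and T22G (4.00%).

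None of the 12 read form measures (4 for each of miR-1a-3p, miR-133a-3p and miR-206-3p) passed the test between the groups. The smallest p was that of miR-1a-3p reads without mismatch, at 60.1% ± 3.09 in Keluoxin and 63.6% ± 2.34 in model (SD, n = 6 each; exact two-sided permutation test, p = 0.0519, adjusted 0.327). Over all annotated arms the share without mismatch averaged 53.1% in Keluoxin (50.6% to 57.9%) and 61.0% in model (58.7% to 62.7%), without overlap of the groups. The share of reads with a changed last base averaged 34.6% in Keluoxin and 30.4% in model over all annotated arms, 29.7% and 27.9% for miR-1a-3p, 27.9% and 23.7% for miR-206-3p and 19.4% and 17.9% for miR-133a-3p. Reads with a changed last base make up part of the joint name miR-133a/b-3p; their part in its call was not tested. Mean lengths were 21.5 nt in both groups for miR-1a-3p and 22.4 nt in both for miR-133a-3p, and 21.5 ± 0.309 nt in Keluoxin and 21.7 ± 0.138 nt in model for miR-206-3p (SD, n = 6 each; adjusted p = 0.327 by exact permutation).

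**Figure D5:**
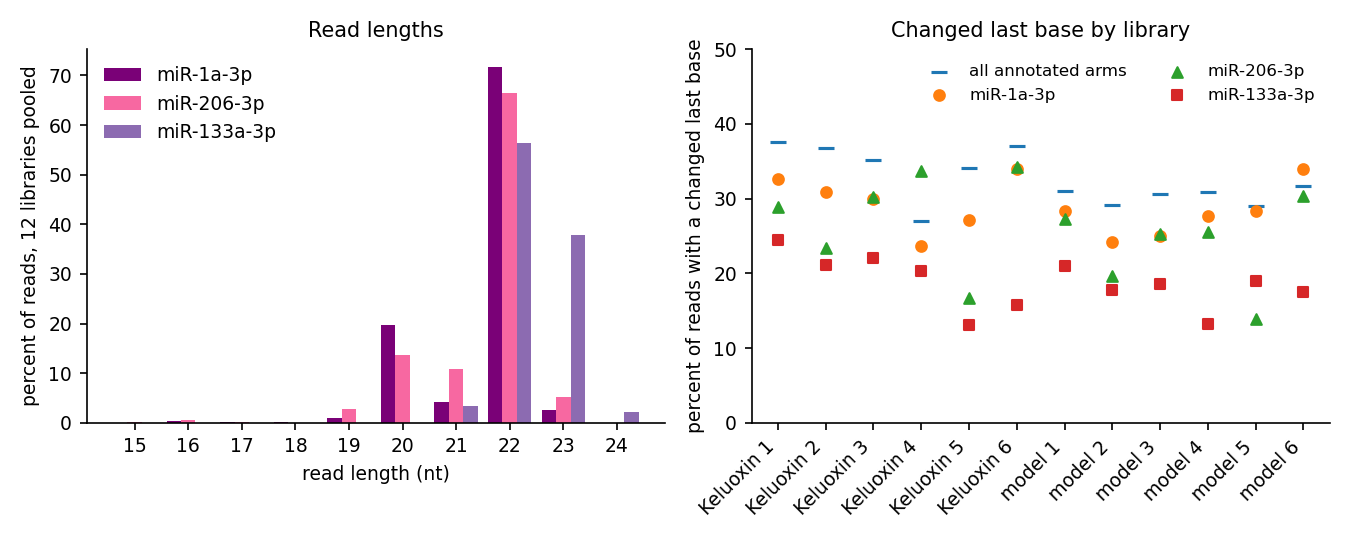
Left, share of reads at each length (nt) for miR-1a-3p, miR-206-3p and miR-133a-3p, with the 12 libraries pooled. Reads of miR-133 that end before the deciding base stand under the joint name and are left out. Right, percent of reads whose last base differs from the precursor in each Keluoxin and model library, for these arms and for all annotated arms. miR-133a-3p, whose changes to C are counted under the joint name, lies below miR-1a-3p in every library.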

How the data were processed

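Per the labels' protocols, the NEBNext small RNA kit was used and inserts of 15 to 35 nt were selected. Novoalign, Bowtie, cutadapt and bcl2fastq appear in the submitters' processing notes, with versions, build and miRBase release not given in the sources used here. The deposited counts are whole reads per distinct sequence (at least 2 reads, 15 to 51 nt) and precursor, not normalized; the authors divided the count of a sequence that fits several precursors by their number, and its undivided count was used. The other deposited values, lengths and positions (with 5 added), are as the file headers name them.

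Each sequence was counted once, by the side of the precursor's middle on which it lies; 2.53% of reads stood under joint names. Levels were tested with edgeR 4.0.16 (R 4.3.3; TMM scaling, filterByExpr, quasi-likelihood, Benjamini-Hochberg over 1006 arm names, SE from the F statistic); normalized CPM use TMM-scaled library sizes. DESeq2 1.42.0 was an alternative. The fit was tested on simulated counts. Read forms needed at least 20 reads in every library and were compared by exact permutation (smallest p 0.00216) in Python 3.11.15. Correlations used log2 of CPM plus 1. The named arms are all those of the members, the 5 most correlated arms for miR-1a-3p and miR-133a-3p, and those of the marker lists, most of them given as sums; miR-31-5p was described further after its values were seen. The members and lists were chosen with earlier results of these data known. Depth ran from 1933375 to 7892147 reads.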

Additional observations from a re-analysis of the deposited data

Results flagged for a closer look

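Values of 1 library far from the others of its group were looked for in 32 sets of 6 libraries by the gap to the nearest library, and 8 were found; chance gives about 1 in 20. For levels, Keluoxin replicate 4 stood apart for miR-1a-3p (1629.8 CPM), miR-133a-3p (137 CPM) and the joint miR-133a/b-3p (34.1 CPM). The other 5 flags concern read forms. The share of miR-206-3p reads at the most frequent start was 99.2% in Keluoxin replicate 4 and 96.1% in model replicate 4, where every read of the others in each group began there, and that of miR-1a-3p was 99.9% in model replicate 2. Each of these 3 rests on 2 reads. The share of miR-1a-3p reads without mismatch was lowest in model replicate 6, at 59.1%, and the mean length of miR-206-3p was lowest in Keluoxin replicate 2, at 20.9 nt.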

How the results depend on the processing

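The log2 fold changes of miR-1a-3p, miR-206-3p and miR-133a-3p kept their sign and did not pass under any other setting that gave a value with all 12 libraries (lowest and highest 0.26 and 1.03, 0.30 and 0.82, and 0.58 and 1.71). DESeq2 gave no adjusted p for miR-1a-3p and miR-133a-3p. With 1 library left out the ranges were −0.11 to 0.83, 0.06 to 0.69 and 0.18 to 1.49, each lowest without Keluoxin replicate 4; with joint reads divided and this library left out, miR-1a-3p was at −0.063. The joint miR-133a/b-3p lost its call with upper quartile scaling (1.73, edgeR adjusted p = 0.0564), with no filter (1.96, edgeR adjusted p = 0.0613) and with the replicate block (1.64, edgeR adjusted p = 0.0741); with 1 library left out it ranged from 1.09 to 2.19. The replicate numbers were not taken as pairs, because no protocol states a pairing. Same-numbered deviations all correlated positively, at 0.054 to 0.279, 2 of 6 under 0.1. Of 12 libraries, 2 correlated best with their own number. These values do not decide whether the numbers pair the libraries. The block gave 202 calls and log2 fold changes of 0.26 for miR-1a-3p, 0.33 for miR-206-3p and 0.58 for miR-133a-3p. The cause of these changes was not tested. The number of member arms called was 1, and 0 with upper quartile scaling, no filter, the block, or joint reads divided without Keluoxin replicate 4. With 1 library left out it was 0 to 1. It was also 0 with reads without mismatch and with reads of a single miRNA, but there the joint name was not among the arms tested. Those counts therefore say nothing of its call. Of all arms, 20.3% of 1006 were called in the reported fit; the counts were 335 with DESeq2, 113 with reads without mismatch, 124 with reads of a single miRNA, 109 with annotated precursors only, 128 with joint reads divided without Keluoxin replicate 4, and 127 (without Keluoxin replicate 6) to 338 (without model replicate 1) with 1 library left out. Over all arms the median of the log2 fold changes was 0.06 with TMM, −0.15 with upper quartile and 0.27 with total read scaling, and 56.4%, 44.2% and 82.1% of the calls were higher, in that order. Of the read forms, the mean length of miR-133a-3p (−0.0455 to 0.0148 nt) and the most frequent start of miR-206-3p (−0.132 to 0.654 points) changed sign with 1 library left out. With at least 50 reads asked of every library, only miR-1a-3p gave read form values. Few reads limit miR-133b and the 5p arms.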

Other observations

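Of the 129 reads that fit miR-1a-3p and miR-206-3p equally, 89 differ from mir-206 by G11A and from mir-1a-1 by A17G, and 48 of these 89 were from Keluoxin replicate 2; the other 40 differ by G17A and A11G, and 2 of them were from it. miR-206-3p reads of 22 nt were 46.9% of the arm in that library, against 61.1% to 76.7% in the other Keluoxin libraries and 66.7% to 81.8% in model. It was also the library with the most miR-208a-3p, 7.35 CPM.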
